A study of Homo sapiens with 64 samples.

Results

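H/ACA small nucleolar RNAs (snoRNAs) carry the symbol SNORA and a number, and they were followed here in 3 sets of libraries from human cell lines. Every symbol that starts with SNORA followed by a digit was a member, whatever its values. That gave 107 of 26364 gene symbols in each C4-2 table and 106 of 25207 in the HEK293T table. Of 114 symbols in any table, 99 stood in all of them, and 7 older symbols of the HEK293T table are other names of members of the C4-2 tables (SNORA76 for SNORA76C, for example), which left 107 distinct RNAs. SNORA73B has no line in the HEK293T table.

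FBL (fibrillarin) was immunoprecipitated with its RNA (RIP) from C4-2 cells that had received a control small interfering RNA (siCTRL), with 2 RIP and 2 input libraries. A C4-2 time course held siFBL and siCTRL cells at 0, 3, 6 and 12 h. A HEK293T time course held siFBL, siNOP56 and siCTRL cells at 0, 6, 12 and 24 h, with 2 libraries per group in both. The stated purpose of the hours is mRNA half-life, and the sources used here do not say how transcription was blocked. C4-2 is a prostate cancer line that grows without androgen, and HEK293T an embryonic kidney line with the large T antigen of simian virus. The labels name siNOP56 where the design text names an shRNA. The samples analysed here hold neither a control antibody nor an siFBL RIP, and nothing states that replicates were separate cultures, so p-values measure the spread between libraries, which may be technical.

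An H/ACA snoRNA folds into hairpins joined by a hinge (box H) and ends in a tail with the bases ACA. It pairs with ribosomal RNA through pockets in the hairpins and guides pseudouridylation by DKC1 (dyskerin), which acts with NOP10, NHP2 and GAR1. FBL is the 2′-O-methyltransferase of the other class, the box C/D snoRNAs (SNORD), and NOP56 is a scaffold protein of those same particles. H/ACA particles contain neither protein. Most human snoRNAs of both classes lie in introns of host genes and are cut out of the spliced intron, and some hosts carry both classes.

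The members shown here carry the results described below. SNORA12 and SNORA1 were the RNAs higher in the RIP, and SNORA8 and SNORA40 lie in the same host as SNORA1. SNORA73B was lower in the RIP and in C4-2 cells after siFBL, SNORA67 had more counts in HEK293T siFBL libraries than in siCTRL at every hour, a call that is lost where libraries of a series may correlate (adjusted p = 0.176 with an estimated correlation), and SNORA14B was higher at later hours in HEK293T siCTRL. Sequences are those of GENCODE release 29 on GRCh38, written 5′ to 3′, with the ACA that stands 3 bases before the 3′ end in capitals; SNORA40 has none at that place in this entry.
SNORA12: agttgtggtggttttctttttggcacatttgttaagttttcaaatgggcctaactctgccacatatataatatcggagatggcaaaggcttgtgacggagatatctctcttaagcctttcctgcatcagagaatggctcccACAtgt
SNORA1: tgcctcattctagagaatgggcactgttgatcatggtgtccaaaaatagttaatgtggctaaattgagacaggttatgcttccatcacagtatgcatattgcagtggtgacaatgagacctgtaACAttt
SNORA8: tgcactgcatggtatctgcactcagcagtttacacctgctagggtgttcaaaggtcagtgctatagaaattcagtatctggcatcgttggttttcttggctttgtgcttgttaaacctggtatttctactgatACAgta
SNORA40: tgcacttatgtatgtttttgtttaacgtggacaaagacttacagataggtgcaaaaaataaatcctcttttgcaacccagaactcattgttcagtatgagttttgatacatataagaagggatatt
SNORA73B: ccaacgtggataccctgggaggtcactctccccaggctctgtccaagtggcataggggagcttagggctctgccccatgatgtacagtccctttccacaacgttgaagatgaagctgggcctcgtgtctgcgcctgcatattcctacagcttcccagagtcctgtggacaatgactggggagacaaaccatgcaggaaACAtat
SNORA67: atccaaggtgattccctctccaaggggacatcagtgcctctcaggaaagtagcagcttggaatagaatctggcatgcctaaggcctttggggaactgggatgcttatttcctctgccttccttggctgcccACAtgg
SNORA14B: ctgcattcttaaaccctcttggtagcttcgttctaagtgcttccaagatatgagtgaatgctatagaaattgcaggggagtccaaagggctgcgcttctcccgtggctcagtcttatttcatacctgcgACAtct

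SNORA12 lies at chr10:100237156-100237302 (minus strand) in an intron of CWF19L1. SNORA1 lies at chr11:93732004-93732133, SNORA8 at chr11:93732361-93732499 and SNORA40 at chr11:93735111-93735236, all on the minus strand in introns of TAF1D, a gene for a subunit of the RNA polymerase I selectivity factor. SNORA73B lies at chr1:28508559-28508762 (plus strand) in an intron of RCC1 and SNHG3, and SNORA14B at chr1:235127803-235127937 (minus strand) in an intron of TOMM20. SNORA67 lies at chr17:7577955-7578091 (plus strand) within EIF4A1 and overlaps an exon of the transcript AC016876.2. Of 110 symbols placed in GENCODE, 109 had a host gene on the same strand, and 95 of these were intronic in all basic transcripts while 14 overlapped an exon. Their lengths ran from 121 to 701 nt.

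The ACA stood 3 bases before the end in 78 of 102 SNORA sequences (76.5%), against 4 of 275 SNORD sequences (1.46%) in GENCODE. A box C-like TGATGA followed by a box D-like CTGA, searched on the RNA strand, was found in 1 of 102 SNORA sequences (0.98%), against 209 of 275 SNORD sequences (76%). SNORA12 held neither TGATGA nor CTGA. Near-identical members may share reads: SNORA11D and SNORA11E are 100% identical, SNORA7A and SNORA7B 98.6%, SNORA36A and SNORA36C 97.0%, SNORA80 and SNORA80B 92.0%, SNORA14A and SNORA14B 91.1%, SNORA70 90.4% to both SNORA70B and SNORA70C, SNORA5A and SNORA5B 89.6% and SNORA71C and SNORA71D 86.7%. How the counting split such reads is not stated, so values of these and of the other copies of the SNORA11, SNORA36, SNORA70 and SNORA71 families are uncertain.

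SNORA RNAs gave few reads in any library. Library totals were 22.9 to 33.3 M (mega) counts in the RIP set, 79.0 to 106.1 M in the C4-2 set and 15.96 to 19.88 M in the HEK293T set. The members together held 551 to 1100, 1574 to 3965 and 397 to 936 of them, or 16.7 to 48.0, 16.4 to 37.5 and 22.9 to 53.4 counts per M. The labels give polyadenylated RNA as the molecule for all samples, and mature snoRNAs have no poly(A) tail, so reads of the mature RNA, a precursor and the host's intron cannot be told apart here. Whether counting used strand is not stated. The filter on low counts was passed by 24 of 107 members in the RIP set, 72 of 107 in C4-2 and 34 of 106 in HEK293T. Of the rest, 20, 9 and 16 had no count in any library and 63, 26 and 56 had counts too low for the test.

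SNORA40, SNORA67, SNORA18 and SNORA76C (SNORA76 in HEK293T) were among the leading 5 in both lines. Per kb of RNA, SNORA40 had the highest mean level in C4-2 (21.6 CPM per kb) and in HEK293T (27.1), where CPM is counts per M of the library after normalisation. SNORA67, SNORA10, SNORA76C and SNORA18 followed in C4-2 at 14.1, 12.0, 11.8 and 10.2 CPM per kb. SNORA18, SNORA8, SNORA76 and SNORA67 followed in HEK293T at 18.5, 16.8, 16.5 and 12.7 CPM per kb. In the RIP set the mean pools RIP and input libraries, and there SNORA12 led at 26.2 CPM per kb, ahead of SNORA71C (16.2), SNORA40 (13.5), SNORA71A (10.9) and SNORA73B (10.6). Taken apart, SNORA12 had 50.3 CPM per kb in RIP, against 2.02 in input, where it ranked 26 and SNORA40 (21.4), SNORA71C (20.7) and SNORA73B (16.9) led. The 5 members with the most counts held 37.6% of all SNORA counts in the RIP set, 42.3% in C4-2 and 36.2% in HEK293T.

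The knockdowns and lines matched their labels. FBL mRNA was 0.601 to 3.63 CPM in C4-2 siFBL libraries, against 265.4 to 387.8 CPM in siCTRL. In HEK293T it was 7.19 to 17.7 CPM in siFBL, against 302.9 to 485.0 CPM in siCTRL. NOP56 mRNA was 49.9 to 91.9 CPM in siNOP56, against 146.0 to 205.8 CPM in siCTRL. All 8 prostate markers were above 1 CPM in C4-2 libraries (summed 5531 to 9454 CPM), against 4 of 8 in HEK293T (9.39 to 47.6 CPM).

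Most SNORA RNAs measured in the FBL RIP were lower than in input, and SNORA12 and SNORA1 were higher. The comparison asks which RNAs FBL was bound to in C4-2 siCTRL cells. Of the 24 members that passed the filter, 18 were lower and 2 higher in RIP by edgeR's quasi-likelihood test (Benjamini-Hochberg adjusted p below 0.05), and 4 were not called. Among all 14967 genes tested, 82.9% were called, 39.9% higher and 43% lower. The median log2 of the members was −1.37, against −0.11 for all genes. These counts describe the members that could be tested and nothing more, because 14 of the 24 reached the filter through the input libraries only and 2 (SNORA1 and SNORA12) through the RIP libraries only. The other 8 reached it in all 4 libraries.

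SNORA12 had 212 and 142 counts in the RIP libraries, against 8 and 11 in input. Both RIP libraries were far above both input libraries. That is 7.40 ± 2.02 CPM in RIP and 0.298 ± 0.0699 CPM in input (SD, n = 2 each), or 24.5-fold (log2 4.62, SE 0.27). SNORA12 alone was 33.9% and 25.8% of all SNORA counts in the RIP libraries, against 0.731% and 1% in input. Its host CWF19L1 had a log2 of −1.61 in the same comparison, and no SNORD lies in that host. SNORA1 had 13 and 14 counts in RIP, against 3 and 3 in input, so the groups did not overlap but rest on few reads. Its fold was 5.79 (log2 2.53, SE 0.56). Both RNAs reached the filter through the RIP libraries, where they are high, so the p of that fit is not given for them. With no filter on low counts edgeR gave an adjusted p of 2.40e-06 for SNORA12 and 0.00273 for SNORA1.

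**Figure D1:**
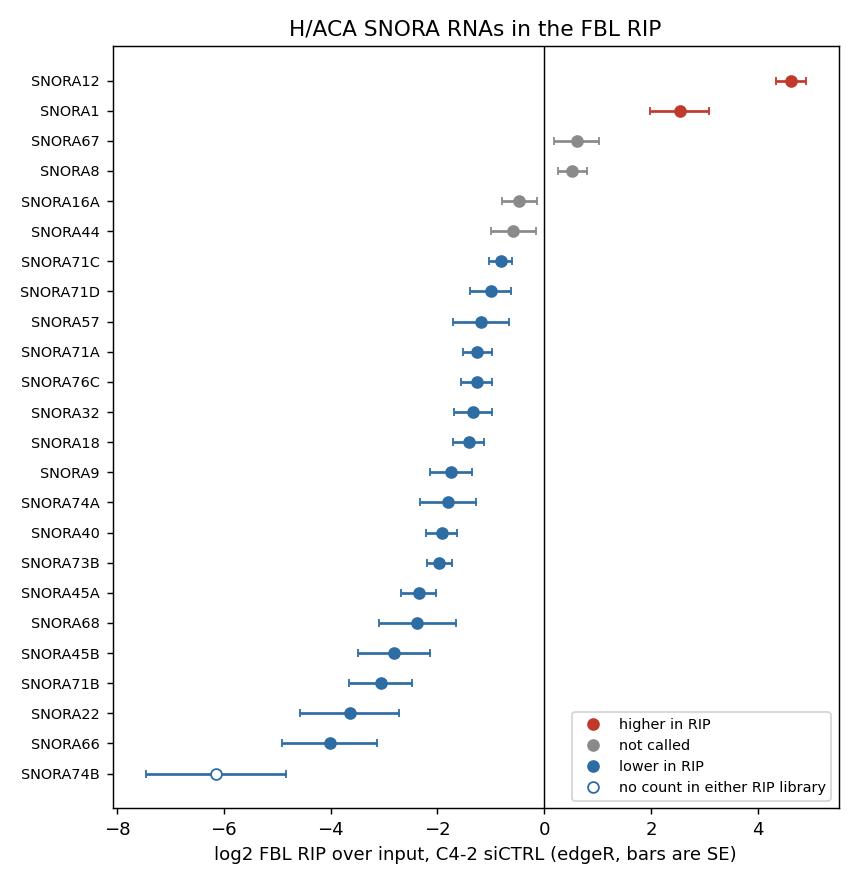
The log2 of RIP over input (x axis, bars are SE) for each of the 24 SNORA RNAs that passed the filter. SNORA12 (4.62) and SNORA1 (2.53) lie to the right in red, 4 uncalled RNAs in grey, and 18 lie to the left in blue; the open point, SNORA74B, had no count in RIP and its fitted value depends on the prior count.

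The members of TAF1D's introns did not move alike. SNORA8 had 39 and 33 counts in RIP, against 34 and 33 in input (log2 0.52, SE 0.27, edgeR adjusted p = 0.0749). Its raw counts overlapped, while in CPM both RIP libraries (1.39 to 1.62) were above both input libraries (1.04 to 1.05). SNORA18 had 17 and 16 counts in RIP, against 62 and 56 in input (log2 −1.41), and SNORA32 had 11 and 10, against 39 and 32 (log2 −1.33). SNORA40 had 16 and 18 counts in RIP, against 107 and 66 in input (log2 −1.92, SE 0.29, edgeR adjusted p = 4.89e-07). The groups of these 3 RNAs did not overlap, with input above RIP. SNORA25, which did not pass the filter, had 5 and 6 counts in RIP, against 16 and 2 in input. TAF1D mRNA itself had a log2 of −1.62. Box C/D genes also lie in this host: the nearest is 430 bp from SNORA1, 729 bp from SNORA8, 166 bp from SNORA18, 403 bp from SNORA32, 1811 bp from SNORA40 and 856 bp from SNORA25.

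The lowest values belonged to RNAs with almost no reads in RIP. SNORA74B had 0 and 0 counts in RIP, against 10 and 10 in input, which is at least 4.99-fold lower with 3 counts as the floor over the group. SNORA66 had 1 and 0 counts in RIP, against 16 and 10 in input, an input-over-RIP ratio of 19.4 with a 95% counting interval of 3.19 to 797.1. SNORA22 had 0 and 1, against 11 and 9, a ratio of 15.0 (2.39 to 619.9). Of these 3, none reached more than 1 read in a RIP library. SNORA45B had 2 and 1 counts in RIP, against 18 and 12 in input, a ratio of 7.48 (2.33 to 38.3), and SNORA68 had 1 and 2, against 13 and 9, a ratio of 5.48 (1.65 to 28.6). SNORA71B had 5 and 0 counts in RIP, against 24 and 34 in input (log2 −3.06). The intervals are exact binomial ones for the 2 sums of counts and cover counting error only.

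Better-covered members showed smaller differences. SNORA73B, known as U17b and related to a yeast RNA needed for cutting the 18S precursor, had 22 and 20 counts in RIP, against 104 and 116 in input (log2 −1.96, SE 0.24, edgeR adjusted p = 9.00e-09). SNORA71C had 40 and 35, against 83 and 94 (log2 −0.82, edgeR adjusted p = 0.00116), and SNORA71A had 18 and 23, against 57 and 74 (log2 −1.25). In all 3 both input libraries were above both RIP libraries. The other lower members, SNORA9, SNORA45A, SNORA57, SNORA71D, SNORA74A and SNORA76C, had log2 values of −1.75, −2.35, −1.19, −1.01, −1.80 and −1.27. SNORA57 had 12 counts in 1 RIP library and 1 in the other, against 19 and 21 in input. Besides SNORA8, the uncalled RNAs were SNORA67 (11 and 21 counts in RIP, against 10 and 18 in input, log2 0.61), SNORA44 (7 and 13, against 15 and 25, log2 −0.58) and SNORA16A (21 and 18, against 26 and 46, log2 −0.46).

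**Figure D2:**
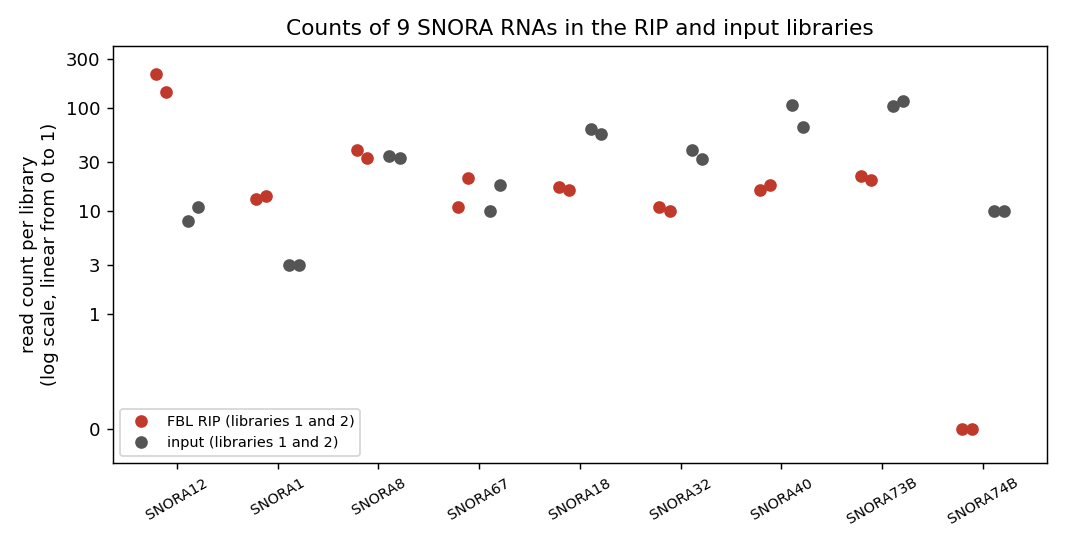
Read counts (y axis, log scale, linear from 0 to 1) of 9 SNORA RNAs in the 2 RIP and 2 input libraries. SNORA12 and SNORA1 have both RIP points above both input points, and the raw counts of SNORA8 and SNORA67 overlap. SNORA18, SNORA32, SNORA40, SNORA73B and SNORA74B have both RIP points below both input points. Counts are not scaled for library size.

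Summed over the class, the RIP libraries held 625 and 551 SNORA counts, against 1095 and 1100 in input. Without SNORA12 the sums were 413 and 409 in RIP, against 1087 and 1089 in input, or 17.2 and 17.2 CPM against 33.7 and 34.4 CPM. The 83 members below the filter summed to 140 and 124 counts in RIP, against 229 and 231 in input. In CPM that was 5.83 and 5.21, against 7.10 and 7.29. The untested members were thus also lower in both RIP libraries, by less than the sum without SNORA12. The RIP libraries had normalisation factors of 0.722 and 0.721, against 1.39 and 1.38 in input. Scaling by library size alone moves the median of all genes by −0.94, and with that scaling SNORA8 and SNORA67 take values below 0.

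Other RNAs of the same pathway differed from the SNORA RNAs in this RIP. All 10 SCARNA RNAs tested, guides of Cajal bodies many of which carry both H/ACA and C/D boxes, were higher (median log2 5.66), and TERC, the telomerase RNA with an H/ACA domain, was higher at log2 0.78. All 102 SNORD RNAs tested were higher (median log2 4.26). These counts too describe only RNAs that could be tested. Of 264 SNORD symbols 162 did not pass the filter, 93 of them with no count, and 60 of the 102 passed through the RIP libraries only. Of 24 SCARNA symbols 14 did not pass, and 4 of the 10 passed through the RIP libraries only. Summed over every SNORD symbol, tested or not, the RIP libraries held 32290 and 29446 counts, against 2168 and 2271 in input. RMRP and RPPH1, structured RNAs of ribonuclease particles, were lower at −1.87 and −2.50. Of 6 mRNAs for H/ACA proteins, DKC1 was higher (0.38), GAR1 (−1.25), NAF1 (−1.32), NOP10 (−0.91) and SHQ1 (−0.30) were lower, and NHP2 was not called (0.15). Of 73 SNORA host genes tested, 32 were higher and 37 lower (median −0.29). Among 20 members with a tested host, 15 were below 0 together with the host, 2 were below 0 with the host above 0, and 3 (SNORA1, SNORA8 and SNORA12) were above 0 with the host below 0.

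In the fit of the C4-2 time course 6 SNORA RNAs were lower after siFBL when all hours were averaged, and none was called higher. The comparison asks what FBL loss does to RNA levels. At 0 h, 0 of 72 members were called by edgeR, where 8.48% of 23437 genes were called; 3 were lower at an unadjusted p under 0.05 (SNORA64, SNORA40 and SNORA73B) and DESeq2 called 3 lower. At 3 h 0 were called (11.9% of all genes), with 3 higher and 2 lower at an unadjusted p under 0.05. At 6 h 1 was called (9.05%), and at 12 h 0 were called (13.4%), with 5 lower at an unadjusted p under 0.05. For the mean over the hours, 6 were lower and 0 higher, or 8.33% of the 72, against 24.8% of all genes called lower; without library A of siFBL at 12 h, 10 were lower. With the correlation estimated among the 4 libraries of an siRNA that share a number in the column names (limma voom, 0.111), 5 were lower and SNORA62 was lost (adjusted p = 0.184 with an estimated correlation). That 1 value pools both siRNAs: same-numbered libraries deviated together in siFBL, at a correlation of 0.465 to 0.672 with 0 h, and at −0.0550 to 0.0529 in siCTRL. The members' median log2 was −0.38, against 0.10 for all genes, and 52 of 72 lay below 0. Scaling by library size alone moved the median of all genes by 0.20. In these bulk libraries fewer cells with an RNA and less of it per cell cannot be told apart.

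SNORA64, encoded in an intron of RPS2, had the smallest adjusted p. At 0, 3, 6 and 12 h (libraries A and B of each) its counts were 38 and 21, 19 and 11, 47 and 28, and 40 and 31 in siFBL, against 145 and 93, 47 and 67, 43 and 81, and 59 and 34 in siCTRL. The groups did not overlap at 0 and 3 h and overlapped at 6 and 12 h. Its mean log2 was −1.29 (SE 0.30, edgeR adjusted p = 0.00322), and RPS2 mRNA had −0.20. SNORA40 had 174 and 146, 222 and 135, 222 and 219, and 343 and 228 counts in siFBL, against 358 and 285, 291 and 262, 307 and 319, and 351 and 231 in siCTRL. Every siFBL library up to 6 h was below both siCTRL libraries, and at 12 h they overlapped. The mean log2 was −0.57 (SE 0.16, edgeR adjusted p = 0.00921), beside −1.01 for TAF1D.

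SNORA73B had 78 and 55, 23 and 13, 20 and 5, and 20 and 10 counts in siFBL, against 278 and 180, 40 and 24, 50 and 43, and 32 and 8 in siCTRL. All siFBL counts up to 6 h were lower than their siCTRL counts, and those at 12 h overlapped. Its mean log2 was −1.25 (SE 0.37, edgeR adjusted p = 0.0127), with −1.09 for RCC1 and −0.54 for SNHG3. SNORA33, in an intron of RPS12, had 34 and 30, 6 and 0, 0 and 0, and 0 and 0 counts in siFBL, against 82 and 55, 14 and 8, 21 and 0, and 21 and 8 in siCTRL. With a floor of 3 counts over the group it was at least 7.03-fold lower at 6 h and at least 10.9-fold lower at 12 h, while 1 siCTRL library at 6 h also had no count. Its edgeR adjusted p was 0.00528 for the mean over hours.

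SNORA51, in an intron of NOP56, had 7 and 30, 4 and 2, 0 and 2, and 2 and 1 counts in siFBL, against 32 and 7, 14 and 13, 12 and 14, and 15 and 13 in siCTRL. The groups overlapped at 0 h and were apart at every later hour (mean log2 −2.26, SE 0.71). Apart from the 30 counts of 1 library, siFBL had 0 to 7 counts, against 7 to 32 in siCTRL. SNORA51 thus passed the filter through siCTRL libraries, where it is high, so its p is not given. NOP56 mRNA had a log2 of −0.53 in the same fit. SNORA62, in an intron of RPSA, had 30 and 11, 6 and 15, 0 and 0, and 15 and 7 counts in siFBL, against 105 and 26, 1 and 13, 13 and 33, and 11 and 10 in siCTRL (mean log2 −2.18, SE 0.71, edgeR adjusted p = 0.024; estimating the correlation gives an adjusted p of 0.184). The groups of SNORA62 overlapped at 0, 3 and 12 h. It was the RNA called at 6 h, at least 15.4-fold lower in siFBL (edgeR adjusted p = 0.0231). The hosts of all 6 RNAs were also called lower, RPSA at −0.32 and RPS12 at −0.28.

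The other leading members showed no called difference. SNORA67 had 111 and 175, 183 and 225, 167 and 272, and 157 and 283 counts in siFBL, against 209 and 167, 157 and 211, 210 and 154, and 168 and 103 in siCTRL (log2 0.15). SNORA10 had 132 and 179, 165 and 122, 138 and 141, and 150 and 155 in siFBL, against 201 and 192, 157 and 139, 159 and 130, and 143 and 143 in siCTRL (−0.12). SNORA76C had 116 and 129, 215 and 156, 154 and 150, and 182 and 143 in siFBL, against 168 and 144, 126 and 121, 106 and 121, and 185 and 147 in siCTRL (0.12). The groups of SNORA67 overlapped at every hour, while siFBL counts of SNORA10 and SNORA76C lay below siCTRL at 0 h and overlapped with it or lay above it later. The counts of SNORA18 were 137 and 67, 133 and 95, 156 and 149, and 194 and 119 in siFBL, against 170 and 167, 106 and 124, 127 and 104, and 106 and 101 in siCTRL (0.03). SNORA12, the leader of the RIP, had 14 and 8, 25 and 10, 13 and 18, and 16 and 10 in siFBL, against 6 and 1, 10 and 8, 2 and 3, and 4 and 21 in siCTRL. Its log2 of 1.25 was not called. SNORA12 passed the filter mostly through siFBL libraries, where it is high, so its p is not given. The model of both lines at 0, 6 and 12 h, given below, called it higher, which is no separate support.

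Other genes of the class moved in C4-2 as follows for the mean over hours, where 24.8% of 23437 genes were called lower. Of 6 mRNAs for H/ACA proteins, 4 were lower: DKC1 (−0.60), GAR1 (−0.63), NAF1 (−0.50) and SHQ1 (−0.60). Of 77 SNORA host genes tested, 50 were lower and 5 higher (median −0.37), while the members' own median was −0.38. Of 68 members with a tested host, 45 were below 0 with the host below 0, 2 were above 0 with the host above 0, 3 were below 0 with the host above 0, and 18 were above 0 with the host below 0. SNORD RNAs had a median of −1.74 with 48 of 115 lower. At 0 h the summed SNORA level was 20.9 ± 0.430 CPM in siFBL and 31.9 ± 6.95 CPM in siCTRL (SD, n = 2 each).

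**Figure D3:**
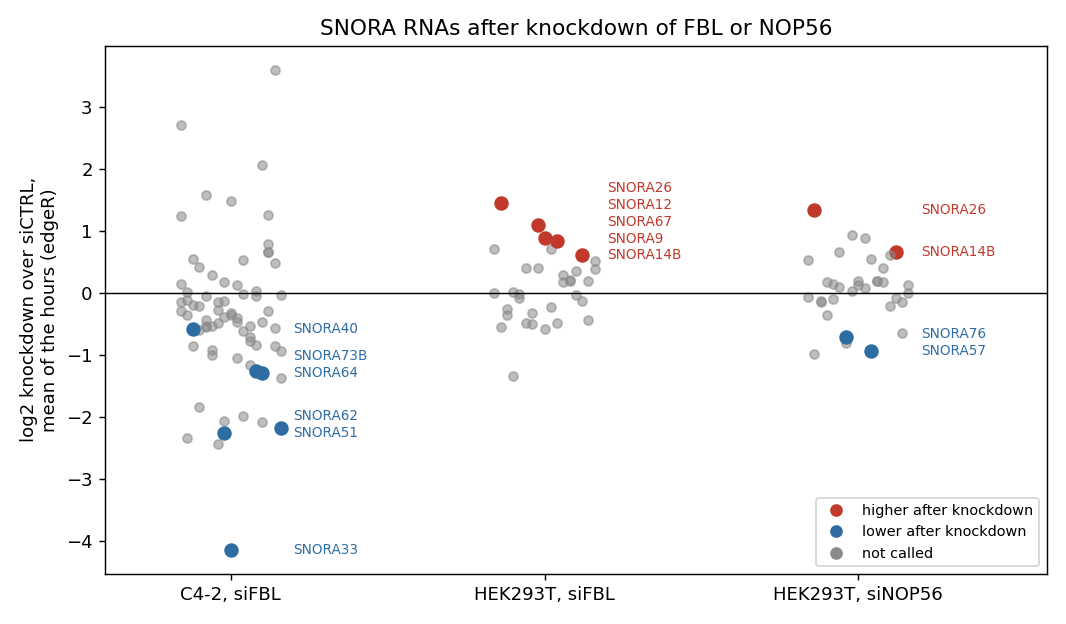
The log2 of knockdown over siCTRL, averaged over the hours (y axis), for each SNORA RNA tested in C4-2 with siFBL (72), HEK293T with siFBL (34) and HEK293T with siNOP56 (34). Called RNAs are named: 6 lower in C4-2, 5 higher in HEK293T siFBL, and 2 higher with 2 lower in HEK293T siNOP56; all HEK293T calls, and SNORA62 in C4-2, are lost when libraries of a series are allowed to correlate.

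In the fit of the HEK293T time course a few SNORA RNAs were called higher after siFBL, and none was called lower. At 0 h 0 of 34 members were called by edgeR (1.74% of 14939 genes), with 2 higher and 1 lower at an unadjusted p under 0.05 and 0 by DESeq2. At 6 h 0 were called (6.63%), with 1 higher at an unadjusted p under 0.05. At 12 h SNORA26 and SNORA67 (log2 1.17) were higher (10.9% of all genes called). SNORA26 then had 25 summed counts in siFBL, against 3 in siCTRL, a ratio of 8.22 with a 95% counting interval of 2.51 to 42.6. At 24 h SNORA26 (2.28) and SNORA18 (1.15) were higher (15.1%). For the mean over hours 5 were higher and 0 lower, or 14.7% of the 34, against 23.8% of all genes called higher; without replicate 2 of siFBL at 6 h, 3 were higher. With an estimated correlation among libraries of a series 0 were called, and the smallest adjusted p was 0.176. With siNOP56, 0 were called at 0 h by edgeR (0.187% of all genes; 1 higher at an unadjusted p under 0.05, 0 by DESeq2). At 6, 12 and 24 h edgeR also called 0 (0.683%, 1.53% and 5.31%), with 1, 3 and 4 RNAs at an unadjusted p under 0.05. For the siNOP56 mean 2 were higher and 2 lower, against 17.9% and 14.4% of all genes; without replicate 2 of siCTRL at 0 h, 2 were higher and 0 lower. With an estimated correlation 0 were called there as well (smallest adjusted p = 0.351).

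These averages treat the 8 libraries of an siRNA as separate, yet libraries of 1 replicate number and siRNA deviated together over the hours, with a correlation of 0.736 to 0.787 in siFBL and 0.566 to 0.639 in siNOP56. With that correlation estimated (limma voom, 0.598), 0 members were called in either average, so every HEK293T average below is lost there. Both knockdowns also share their siCTRL libraries, and their values are given side by side only.

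SNORA67 had 47 and 66, 31 and 44, 46 and 46, and 48 and 28 counts in siFBL at 0, 6, 12 and 24 h (replicates 1 and 2), 32 and 25, 31 and 25, 18 and 24, and 32 and 24 in siNOP56, and 21 and 34, 30 and 21, 24 and 16, and 19 and 25 in siCTRL. Both siFBL libraries were above both siCTRL libraries at every hour. The mean log2 was 0.89 after siFBL (SE 0.18, edgeR adjusted p = 0.000834; estimating the correlation gives an adjusted p of 0.176) and 0.13 after siNOP56 (edgeR adjusted p = 0.636). SNORA26, in DANCR, had 8 and 18, 3 and 4, 9 and 16, and 11 and 31 in siFBL, 6 and 14, 4 and 4, 12 and 12, and 13 and 24 in siNOP56, and 13 and 18, 3 and 1, 1 and 2, and 4 and 4 in siCTRL. At 12 and 24 h both knockdowns were above siCTRL in every library, and at 0 h they were not. Its mean log2 was 1.45 after siFBL (SE 0.37, edgeR adjusted p = 0.00496; estimating the correlation gives an adjusted p of 0.244) and 1.33 after siNOP56 (SE 0.37, edgeR adjusted p = 0.0124; with the correlation, an adjusted p of 0.377).

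SNORA14B had 16 and 17, 25 and 16, 34 and 30, and 39 and 43 counts in siFBL, 14 and 14, 28 and 23, 49 and 37, and 35 and 37 in siNOP56, and 8 and 5, 25 and 19, 23 and 22, and 25 and 25 in siCTRL. Both knockdowns were above siCTRL at 0, 12 and 24 h in every library, and both overlapped siCTRL at 6 h. The mean log2 was 0.60 after siFBL (SE 0.16, edgeR adjusted p = 0.00599; estimating the correlation gives an adjusted p of 0.32) and 0.67 after siNOP56 (SE 0.16, edgeR adjusted p = 0.00508; with the correlation, an adjusted p of 0.351). Its host TOMM20 went the other way, at −0.37 and −0.28. SNORA9, which overlaps an exon of SNHG15, had 64 and 66, 6 and 16, 8 and 8, and 10 and 10 in siFBL, 48 and 57, 11 and 4, 13 and 6, and 7 and 7 in siNOP56, and 42 and 48, 3 and 3, 9 and 7, and 5 and 5 in siCTRL. Both siFBL libraries were above siCTRL at 0, 6 and 24 h (mean log2 0.83, SE 0.26, edgeR adjusted p = 0.0162; estimating the correlation gives an adjusted p of 0.418), and SNHG15 had 0.75.

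SNORA12 had 5 and 4, 5 and 7, 9 and 12, and 8 and 27 counts in siFBL, 5 and 1, 7 and 10, 10 and 7, and 7 and 24 in siNOP56, and 3 and 2, 2 and 4, 10 and 7, and 1 and 6 in siCTRL. The siFBL mean log2 was 1.09 (SE 0.41), from single-digit counts in most libraries, and its call was lost with an estimated correlation. SNORA12 passed the filter mostly through siFBL and siNOP56 libraries, where it is high, so its p is not given. SNORA57, an RNA lower after siNOP56, had 12 and 19, 16 and 13, 12 and 13, and 12 and 19 in siFBL, 8 and 14, 14 and 5, 10 and 10, and 3 and 22 in siNOP56, and 10 and 16, 21 and 18, 25 and 26, and 26 and 25 in siCTRL. Both knockdowns were below siCTRL from 6 h on, and all groups overlapped at 0 h (siNOP56 mean log2 −0.93, SE 0.29, edgeR adjusted p = 0.0231; with the correlation, an adjusted p of 0.385). SNORA76 had 23 and 6, 43 and 12, 46 and 33, and 76 and 54 in siFBL, 19 and 19, 17 and 31, 28 and 22, and 64 and 45 in siNOP56, and 32 and 39, 49 and 51, 51 and 38, and 51 and 53 in siCTRL. Its siNOP56 values lay below siCTRL up to 12 h and overlapped at 24 h (mean log2 −0.70, SE 0.25, edgeR adjusted p = 0.0425; with the correlation, an adjusted p of 0.351).

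SNORA40, SNORA18 and SNORA8, also among the leading 5 in HEK293T, had no called mean between siRNAs. SNORA40 had 55 and 45, 46 and 36, 70 and 39, and 88 and 44 counts in siFBL, 55 and 56, 56 and 66, 79 and 57, and 83 and 81 in siNOP56, and 72 and 63, 62 and 67, 54 and 41, and 62 and 73 in siCTRL. SNORA18 had 79 and 89, 26 and 37, 40 and 33, and 51 and 36 in siFBL, 69 and 86, 24 and 49, 30 and 23, and 34 and 56 in siNOP56, and 78 and 83, 29 and 33, 30 and 49, and 20 and 17 in siCTRL. SNORA8 had 67 and 74, 23 and 26, 26 and 30, and 51 and 37 in siFBL, 74 and 74, 19 and 25, 35 and 54, and 45 and 52 in siNOP56, and 59 and 56, 19 and 31, 30 and 42, and 36 and 42 in siCTRL. SNORA40 counts of both knockdowns lay below siCTRL at 0 h, and those of siNOP56 lay above it at 12 and 24 h. SNORA18 counts of both knockdowns overlapped siCTRL up to 12 h and lay above it at 24 h, and those of SNORA8 lay above it at 0 h. Of 6 mRNAs for H/ACA proteins 3 were higher for the siFBL mean, DKC1 (0.98), GAR1 (0.51) and NHP2 (0.21), and TERC was higher at 0.60, where 23.8% of all genes were higher. With an estimated correlation DKC1 kept its call (adjusted p = 0.000219), and GAR1 (0.0561), NHP2 (0.212) and TERC (0.183) did not. Of 50 SNORD RNAs 10 were lower and 1 higher, where 20.2% of all genes were lower, and with an estimated correlation 3 were lower and 0 higher.

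With time, the summed SNORA level was lowest at the first later hour in every series and higher again at the last hour. In C4-2 it was 20.9 ± 0.430, 16.1 ± 0.974, 18.9 ± 0.918 and 22.4 ± 4.44 CPM at 0, 3, 6 and 12 h in siFBL, and 31.9 ± 6.95, 17.2 ± 0.709, 19.7 ± 0.385 and 23.9 ± 1.31 CPM in siCTRL (SD, n = 2 each). In HEK293T it was 42.1 ± 2.66, 22.8 ± 0.503, 31.6 ± 3.26 and 42.7 ± 6.61 CPM at 0, 6, 12 and 24 h in siFBL and 41.1 ± 3.22, 23.4 ± 0.314, 29.3 ± 4.11 and 39.1 ± 2.59 CPM in siNOP56. The siCTRL cells had 37.7 ± 0.987, 24.0 ± 0.778, 28.0 ± 1.02 and 33.8 ± 1.93 CPM at the same hours. Values are relative to the other RNA of the same library, so they are not amounts per cell.

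**Figure D4:**
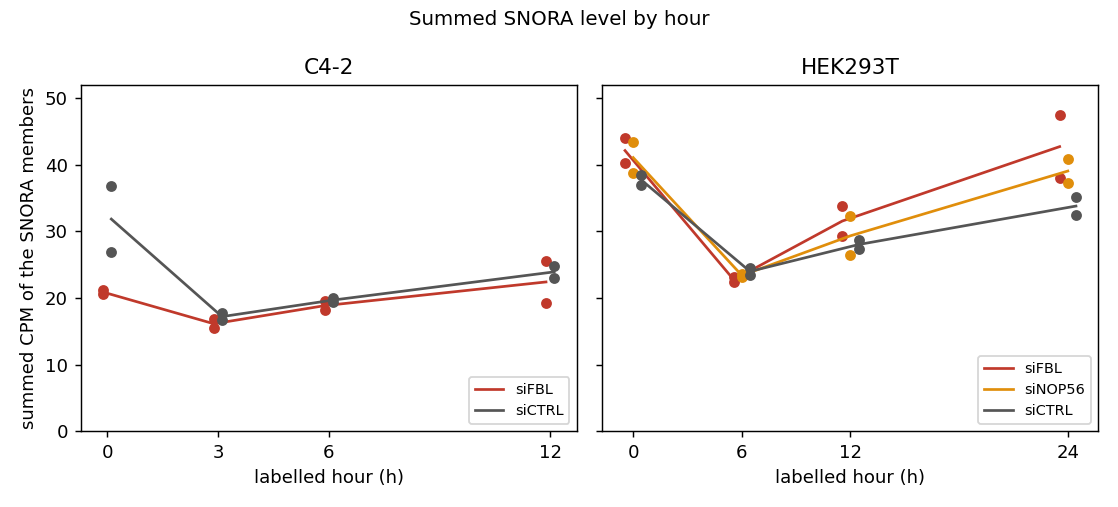
Summed CPM of all SNORA members (y axis) by labelled hour (x axis) in C4-2 (left) and HEK293T (right), with a point per library and a line through the group means. Each line is lowest at the first hour after 0 h, at 16.1 to 17.2 CPM in C4-2 and 22.8 to 24.0 CPM in HEK293T.

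The fall at 6 h in HEK293T siCTRL cells was carried by part of the class. Of 34 members 10 were lower and 2 higher at 6 h than at 0 h by edgeR, where 23.3% of all genes were lower and 20.8% higher; without replicate 1 at 6 h, 4 were lower and 1 higher. The members' median log2 was −1.14, against 0.09 for all genes; scaling by library size alone moved the median of all genes by −0.36. SNORA9, at −3.49 (edgeR adjusted p = 5.07e-05), and SNORA69 were the lowest of those called. SNORA69 had 2 summed counts at 6 h, against 29 at 0 h, a ratio of 0.0887 with a 95% counting interval of 0.0103 to 0.351. SNORA26 (−2.52), SNORA71C (−2.19) and SNORA70 (−1.82) came next. SNORA33, SNORA68, SNORA61, SNORA18 and SNORA8 were lower by smaller amounts, −1.69, −1.41, −1.34, −1.01 and −0.84. Over all siRNAs SNORA69 had 6 to 16 counts at 0 h and 0 to 6 later. It passed the filter through 0 h libraries, where it is high, so its p is not given. SNORA71C, with 27 to 37 counts at 0 h and 0 to 12 later, passed that way too. The lower calls and the median therefore describe only members that could be tested. SNORA70, for example, had 55 and 50, 12 and 11, 7 and 11, and 6 and 12 counts at 0, 6, 12 and 24 h in siCTRL, so every later library was far below both at 0 h. Its copies SNORA70B to SNORA70G had 0 counts in every siCTRL library. SNORA68 had 30 and 32, 9 and 9, 11 and 15, and 16 and 18.

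SNORA14B and SNORA50 rose instead, by 2.10 (edgeR adjusted p = 0.000202) and 1.65 on the log2 scale at 6 h. SNORA14B counts in siCTRL, given above, were 5 and 8 at 0 h and 19 to 25 at all later hours, with no overlap. SNORA50 had 7 and 3, 11 and 14, 11 and 13, and 12 and 19 counts at 0, 6, 12 and 24 h. Over all siRNAs it had 2 to 7 counts at 0 h and 7 to 20 later. It passed the filter through later hours, where it is high, so its p is not given. SNORA12, with at most 5 counts at 0 h, also passed through later hours. At 12 h 4 were higher and 8 lower than at 0 h (55.5% of all genes called), with SNORA14B at 2.22, SNORA12 at 2.16, SNORA50 at 1.68 and SNORA57 at 1.42. At 24 h again 4 were higher and 8 lower (60.7%), with SNORA14B at 2.52, SNORA50 at 2.19, SNORA57 at 1.58 and SNORA76 at 1.16. Fitted as a slope over all hours, 3 were higher (SNORA14B, SNORA50 and SNORA57) and 5 lower (SNORA9, SNORA18, SNORA29, SNORA69 and SNORA71C), where 50.1% of all genes were called. Of these, SNORA50 passed the filter through later hours, and SNORA29, SNORA69 and SNORA71C through 0 h libraries. Without replicate 1 or 2 at 0 h the slope called 3 or 1, all lower.

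**Figure D5:**
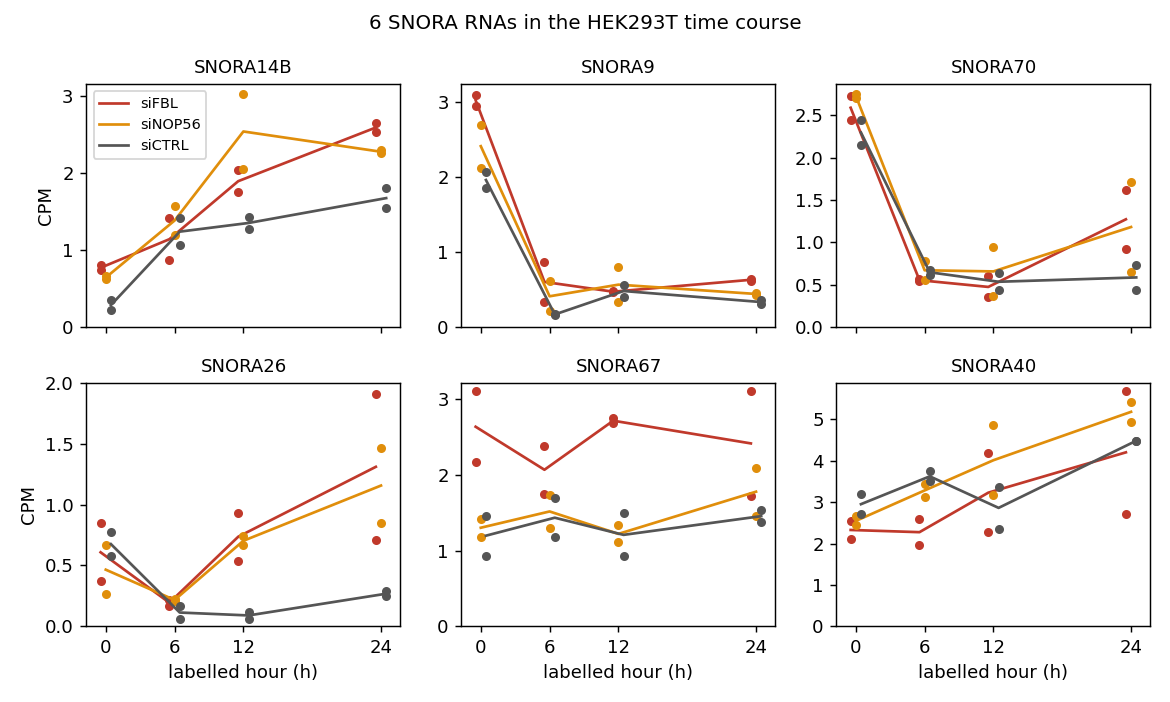
CPM (y axis) of 6 SNORA RNAs by labelled hour (x axis) in HEK293T, with a point per library and lines through the means of siFBL, siNOP56 and siCTRL. SNORA14B climbs after 0 h in all 3 series, SNORA9 and SNORA70 drop and stay low, SNORA26 is higher at 12 and 24 h in the knockdowns than in siCTRL, SNORA67 is highest in siFBL, and the lines of SNORA40 cross.

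At 6 h over 0 h most calls in the knockdown cells were lower, and some were of members that passed the filter through 0 h libraries only. Scaling by library size alone moved the median of all genes by −0.30 in both knockdowns. In siFBL 11 members were lower and 0 higher (23.5% of all genes lower; 7 lower without replicate 1 of siFBL at 6 h), and in siNOP56 10 were lower and 2 higher (23.7% lower and 18.1% higher). The test of the difference in slope over the hours called 0 members for siFBL and 0 for siNOP56 by edgeR (0% of all genes in both), with 2 and 1 at an unadjusted p under 0.05 and 0 by DESeq2. The hosts moved differently in siCTRL: of 28 members with a tested host, 15 were below 0 with the host above 0, 9 were below 0 with the host below 0, 2 were above 0 with the host and 2 above 0 with the host below 0. The median log2 was −1.31 for those 28 members and 0.77 for their hosts, with each of the 19 hosts counted once per member. SNORD RNAs had a median of −2.30 at 6 h, with 24 of 50 lower and 2 higher, while TERC had 0.282, 9.70, 30.5 and 77.9 CPM at 0, 6, 12 and 24 h in siCTRL.

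In C4-2 siCTRL cells 1 member was lower at 3 h than at 0 h, SNORA73B at −2.76 (edgeR adjusted p = 0.0304), where 6.43% of all genes were lower; 10 were lower at an unadjusted p under 0.05. That call was lost without any 1 of its 4 libraries. At 6 h 0 were lower by edgeR (13.1% of all genes), with 4 lower at an unadjusted p under 0.05, and at 12 h 3 were lower, SNORA4, SNORA71C and SNORA73B (18.4%). In siFBL cells 0 were called at 3 h by edgeR (7.68% of all genes), with 7 lower at an unadjusted p under 0.05 and 0 by DESeq2. At 6 h 4 were lower there (SNORA13, SNORA33, SNORA62 and SNORA73B; 24.4% of all genes called). At 12 h SNORA40 was higher at 1.17 and SNORA33 and SNORA71B were lower (34.2%). As a slope in siCTRL, SNORA4 fell by 0.47 and SNORA73B by 0.23 log2 per hour, where 18.6% of all genes fell; without library A at 0 h or library B at 12 h, 0 members were called. SNORA4, in an intron of EIF4A2, had 49 and 36, 1 and 1, 0 and 7, and 8 and 6 counts at 0, 3, 6 and 12 h in siFBL, and 76 and 64, 3 and 4, 8 and 1, and 2 and 0 in siCTRL. Both siRNAs were thus far lower at every later hour than at 0 h. SNORA4 passed the filter on low counts only through the 0 h libraries, where it is high. Its calls at 12 h and as a slope are therefore no separate support for a fall. The slope difference called 0 members by edgeR (0.00427% of all genes), with 3 lower at an unadjusted p under 0.05 and 0 by DESeq2.

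The effect of siFBL differed between the lines for 4 of 40 members tested in both, in 1 model of the hours both share (0, 6 and 12 h), where 33.9% of 17638 genes differed. All 4 calls were lost when the correlation within a series was estimated (limma voom, 0.425), with 0 members called, 1 at an unadjusted p under 0.05 and 19.5% of all genes called. SNORA33 had a log2 of −4.19 in C4-2 and −0.60 in HEK293T (edgeR adjusted p of the difference = 0.0085; adjusted p = 0.205 with an estimated correlation). SNORA78 had −3.34 and −0.14 (0.0178), and SNORA62 had −2.63 and −0.21 (0.0388). SNORA76C had 0.15 in C4-2 and −0.78 in HEK293T (0.0419). Within C4-2 this edgeR model called SNORA8 (0.81, adjusted p = 0.00802), SNORA12 (1.51) and SNORA29 (2.69, adjusted p = 0.0388) higher after siFBL. The edgeR fit of all C4-2 hours called none of them (SNORA8 adjusted p = 0.15, SNORA29 0.999953). SNORA12 passed the filter of this model through HEK293T libraries, mostly of knockdowns, where it is high, so its p is not given. SNORA29 had 48 and 1, 24 and 0, and 4 and 0 counts in C4-2 siFBL at 0, 6 and 12 h. Its siCTRL counts were 8 and 0, 0 and 0, and 4 and 2, so the rise rests on library A. The same model called SNORA33, SNORA44, SNORA51, SNORA62, SNORA64, SNORA76A and SNORA78 lower in C4-2. Within HEK293T it called SNORA67 higher (0.92, adjusted p = 0.00439) and SNORA76C lower (adjusted p = 0.0298). No correlation within a series was estimated in this edgeR model. The lines came with their own sets of libraries and depths, so line and set cannot be told apart.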

How the data were processed

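RNA was sequenced in 4 RIP-set, 16 C4-2 and 24 HEK293T libraries. The authors deposited raw read counts for each gene symbol and library, all whole numbers. Per the submitters' processing notes, TopHat2 2.1.1 and HOMER were used, with no role stated, and the sources used here do not name the counting tool. The same notes name hg38, GRCh38.p13 and hg19 without a role, so positions and sequences were taken by symbol from GENCODE release 29 (GRCh38) and not from the count tables. Library totals were 22.9 to 33.3 M (mega) counts in the RIP set, 79.0 to 106.1 M in the C4-2 set and 15.96 to 19.88 M in the HEK293T set. Intervals and floors cover counting error only.

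Samples were grouped by their labels. The C4-2 columns show a group but not which sample of it, and their 2 libraries are named A and B for the numbers 1 and 2 in the column names. No per-sample column was left unused (0). Nanopore and SLAM-seq libraries were not analysed here.

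Counts were fitted with edgeR 4.0.16 in R 4.3.3 over all genes of a table (trimmed mean of M-values factors, filterByExpr by group, the quasi-likelihood test and Benjamini-Hochberg adjusted p below 0.05). Each time course was 1 fit of all its groups, with contrasts at each hour, for the mean over hours and for slopes. Contrasts of a later hour with 0 h, the comparison of lines and the voom fits with a correlation within a series were added after the data were seen. The voom fits used limma 3.58.1. DESeq2 1.42.0, scaling by library size, RLE factors, no filter, a replicate block and leaving out each library were alternatives. The fits were checked on simulated counts. The members, gene lists and rules were chosen with earlier results of these data known.

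Members called higher in RIP, the 6 lowest of those called lower, those called at 0 h or for the mean over hours (up to 6 a contrast) and the 5 of highest mean CPM per table are described with each library's count. Other members are given by counts and ranges, and further members, such as those of TAF1D and those of the hour contrasts, were named after their values were seen. Same-numbered libraries of siFBL or siNOP56 and siCTRL correlated at −0.0148 to 0.148 in HEK293T and −0.0761 to 0.0256 in C4-2 in their deviations, and those of the RIP set at 0.0879, so replicate numbers did not pair groups. Replicate pairs differed by 1.48 to 138.2 in chi-square per degree of freedom over 22 pairs, so none was a copy.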

Additional observations from a re-analysis of the deposited data

Results flagged for a closer look

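The effect of siFBL differed between the lines for 4 of 40 SNORA RNAs, by the test of the difference itself at 0, 6 and 12 h (edgeR), where 33.9% of all 17638 genes differed. With the correlation within a series estimated (limma voom), 0 of the 40 were called, and the smallest adjusted p was 0.0942, for SNORA76C. The difference, C4-2 minus HEK293T on the log2 scale, was −3.594 for SNORA33. At 0, 6 and 12 h SNORA33 had 34 and 30, 0 and 0, and 0 and 0 counts in C4-2 siFBL, against 82 and 55, 21 and 0, and 21 and 8 in C4-2 siCTRL. In HEK293T it had 16 and 19, 1 and 3, and 3 and 6 in siFBL, against 17 and 17, 3 and 5, and 11 and 5 in siCTRL. The fitted C4-2 value depends on the prior count, since 4 siFBL libraries of these hours had no count.

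The difference was −3.196 for SNORA78, which had 8 and 4, 1 and 0, and 0 and 0 counts in C4-2 siFBL at these hours, against 27 and 18, 6 and 0, and 14 and 17 in C4-2 siCTRL. It was −2.427 for SNORA62, whose C4-2 siFBL libraries at 6 h had no count. It was 0.9319 for SNORA76C, listed as SNORA76 in HEK293T, where replicate 2 of siFBL had 6 and 12 counts at 0 and 6 h, against 39 and 51 in replicate 2 of siCTRL.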

How the results depend on the processing

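The 24 RIP members gave 20 calls in the main fit, 22 with library size only, 20 with RLE factors (3 higher and 17 lower), 23 with no filter and 16 with DESeq2. In that RIP comparison library size only turned SNORA67 to −0.3284 and SNORA8 to −0.4184, and leaving out 1 library gave −0.8298 to 0.01435 for SNORA16A, above 0 without input replicate 2; the cause was not tested. C4-2 siFBL at 0 h gave 2 calls with RLE factors and 3 with DESeq2, against 0. C4-2 siCTRL at 3 h over 0 h gave 2 with library size only and 3 with DESeq2, against 1, and siFBL at 3 h gave 1 with library size only, against 0. The HEK293T siCTRL slope gave 15 with no filter, against 8. With a correlation within a series (voom), the HEK293T siFBL and siNOP56 means gave 0 calls each. In C4-2 it gave 5 for the siFBL mean, against 6, 2 at 0 h (SNORA64 and SNORA73B), against 0, 5 for siCTRL at 3 h over 0 h, against 1, and 1 for siFBL at 3 h over 0 h, against 0.

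With a replicate block, HEK293T siFBL at 0 h and C4-2 siFBL at 0 h gave 1 call each, against 0, the C4-2 mean gave 6 and the RIP 20; these numbers did not pair the groups.

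Leaving out 1 library at a time gave 16 to 20 calls in the RIP, 4 to 10 for the C4-2 mean, 0 to 0 for C4-2 siCTRL at 3 h over 0 h and 0 to 3 for its slope. In HEK293T it gave 3 to 6 for the siFBL mean, 2 to 5 for the siNOP56 mean, 5 to 11, 7 to 12 and 10 to 14 for 6 h over 0 h in siCTRL, siFBL and siNOP56, and 1 to 10 for the siCTRL slope. A group left with 1 library is assumed to vary like the others. The knockdown comparisons at 0 h, C4-2 siFBL at 3 h over 0 h and the slope differences stayed at 0 to 0. SNORA12 after siFBL in HEK293T kept its call in 10 of 22 alternatives, SNORA76 after siNOP56 in 9 of 22 and SNORA57 in the RIP in 5 of 9. Low SNORA counts limit every comparison.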
